A study of Mus musculus with 7 samples.

Results

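The nuclear receptor superfamily was described here through 37 of its genes. They were taken by gene symbol, with earlier results of these livers known, and every probe set whose platform annotation gave one of them as its only gene was taken. This gave 101 probe sets for 37 of the 18193 genes that had a probe set of their own. Messenger RNA was measured in the whole livers of male C57BL/6J pups killed on day of life 1, of which 3 were wild type littermates and 4 were glycerol kinase knockouts, on 1 Affymetrix array each. Glycerol kinase phosphorylates glycerol, and per the series' design text this age precedes the overt signs of its deficiency. Strain, sex, age and tissue were the same in both groups and no group was treated. The sources used here do not say how the allele was made or from how many litters the pups came. Each liver gave its own RNA extract, so the spread within a group is a spread between animals.

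Nuclear receptors are transcription factors that bind short DNA motifs and recruit coactivators or corepressors to nearby genes, in many cases under the control of a small lipid-soluble ligand. Retinoid X receptors form heterodimers with the receptors for fatty acids, retinoic acid, thyroid hormone, vitamin D and foreign compounds, whereas steroid receptors mostly act as homodimers. Orphan receptors have no established natural ligand, and some are active without one. In liver the family is known for its control of fatty acid oxidation, of detoxification and of the genes that make up the hepatocyte's identity.

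Values are intensities on a linear scale that had already been scaled to a common mean per array. Comparisons were made on log2(intensity + 16), which understates the change of dim probe sets, with limma's moderated test over all 22518 probe sets whose mean lay above the median of all, close to an intensity of 98.01. A probe set with a Benjamini-Hochberg adjusted p under 0.05 was called. Of the 101 probe sets of the 37 genes, 53 passed that brightness limit and 48 did not. These 53 stood for 24 genes, of 11159 genes tested in all. The other 13 genes, Rxrg, Rara, Thrb, Vdr, Rorb, Hnf4g, Nr3c2, Pgr, Esr2, Nr4a2, Nr4a3, Nr5a1 and Nr0b1, had no tested probe set. Since the limit is set on the mean of both groups, a probe set bright in only 1 group could pass through that group alone.

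Most receptor transcripts differed little between knockout and wild type liver. Of the 53 tested probe sets 1 was called higher, for Nr2f6, where 2.35% of all tested probe sets were, and 1 was called lower, for Esrrg, where 1.89% of all were. With each gene read from its brightest probe set, 1 of 24 genes was called higher, against 3.09% of all tested genes, and 0 were called lower, against 1.67%. Counts this small do not set the receptors apart from other genes. At an unadjusted p under 0.05 there were 8 probe sets, and at an adjusted p under 0.1 there were 4. Just inside the threshold stood Nr2f6 at 0.0179, and just outside stood a further Esrrg probe set at 0.0783 and Nr2f2 at 0.0982. In 44 of the 53 the log2 fold change was smaller than 0.5 in size, as it was in 82.4% of all tested probe sets. The median over the 53 was 0.12, beside -0.035 over all tested probe sets. Above 0 lay 33 of the 53, beside 45.8% of all tested. By brightest probe set 16 genes were above 0 and 8 below, with a median of 0.16, beside -0.0013 and 49.9% above 0 over all tested genes.

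**Figure D1:**
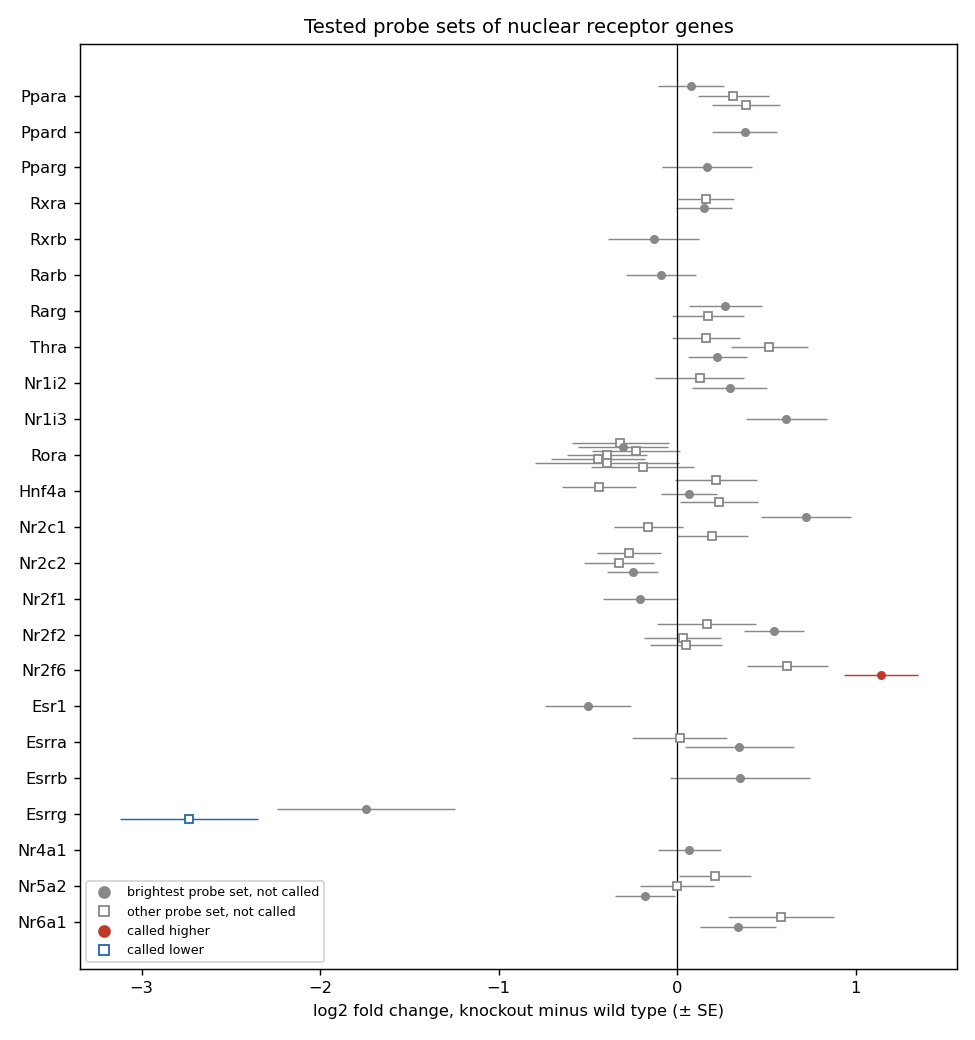
Log2 fold change (knockout minus wild type, horizontal axis, with the standard error from limma as a bar) of each tested probe set of the 24 genes on the vertical axis; filled circles are the brightest probe set of a gene and open squares the others. A reader should see both tested Esrrg probe sets far to the left, at -2.73 (called) and -1.74 (not called). An Nr2f6 probe set lies to the right at 1.14, and most others lie within 0.5 of 0.

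Among the estrogen related receptors, orphan receptors that act on genes of mitochondrial energy metabolism without a known natural ligand, Esrrg fell. Its probe set 1457896_at read 539.5, 408.4 and 318.7 in wild type livers 1 to 3, and 64.2, 24.2, 109.7 and 26.6 in knockout livers 1 to 4. The highest knockout liver was well under the lowest wild type liver, and knockout 1, 2 and 4 were under the brightness limit of 98.01. The means were 422.2 ± 111.0 (SD, n = 3) and 56.2 ± 40.1 (SD, n = 4), a 7.52-fold lower knockout mean, which is a rough figure since 3 of the 4 knockout readings lie under that limit. On the log2 scale the change was -2.73 ± 0.39 (SE, adjusted p = 0.00699), with a 95% interval from -3.60 to -1.87, and it passed whichever array was left out (adjusted p from 0.00268 to 0.0339). The size depends on the offset added before the logarithm: it was -3.13 with an offset of 1 and -2.05 with an offset of 64, and passed with both. Esrrg is known as a receptor active in oxidative tissues, and in liver as one tied to fasting metabolism.

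Neither of the other Esrrg probe sets was called. The brightest Esrrg probe set, 1455267_at, read 228.1, 502.7 and 302.3 in wild type and 63.9, 33.9, 259.8 and 83.6 in knockout livers. Knockout 3 lay inside the wild type range and the other 3 knockout livers lay under it. It was at -1.74 ± 0.50 on the log2 scale (SE, adjusted p = 0.0783), and without knockout 3 it was -2.22 and passed (adjusted p = 0.0107). The third, 1421747_at, was under the brightness limit, with 92.0, 98.3 and 70.0 in wild type and 54.0, 57.3, 71.0 and 53.0 in knockout livers. Knockout 3 was again the highest knockout liver and just above the lowest wild type liver. Knockout 3 was thus the highest of the 4 knockout livers on every Esrrg probe set.

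Esrra and Esrrb, the paralogues of Esrrg, did not pass. Esrra 1460652_at read 503.6, 940.1 and 1003.7 in wild type and 1457.8, 639.1, 886.4 and 1200.5 in knockout livers. The groups overlapped, and knockout 2 and 3 lay within the wild type range. Its log2 fold change was 0.35 ± 0.31 (SE, adjusted p = 0.553), with an interval from -0.33 to 1.03, and without wild type 1 it was 0.039. The other Esrra probe set was at 0.012 ± 0.27. Esrrb 1441921_x_at read 32.8, 107.2 and 151.5 in wild type and 157.2, 126.3, 91.5 and 84.2 in knockout livers, at 0.35 ± 0.39 (SE, adjusted p = 0.654). Its wild type livers spanned almost the whole range, and both its other probe sets were under the brightness limit with overlapping groups.

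Whether Esrrg moved apart from its paralogues was asked of the difference between brightest probe sets within each liver. Esrrg was taken for this with its fall known, so the p values below are not independent evidence. On the log2 scale Esrrg minus Esrra averaged -1.22 ± 0.41 (SD) in 3 wild type and -3.31 ± 1.10 (SD) in 4 knockout livers. That knockout minus wild type difference of -2.09 had an exact two-sided permutation p of 0.0571, and 0.0857 when adjusted over both pairs. Esrrg minus Esrrb went from 1.77 ± 0.74 to -0.32 ± 1.29, again a difference of -2.09, with an exact permutation p of 0.0857 before and after adjustment. The 35 splits of 7 livers allow no p under 0.0286. Neither difference passed. The size of both is rough, since Esrrg 1455267_at read under the brightness limit of 98.01 in knockout 1, 2 and 4. Esrrb 1441921_x_at read on both sides of that limit, from 32.8 to 157.2 over the 7 livers. Within each pair only the change between groups can be read, since 2 probe sets differ in how brightly they report the same amount of RNA.

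**Figure D2:**
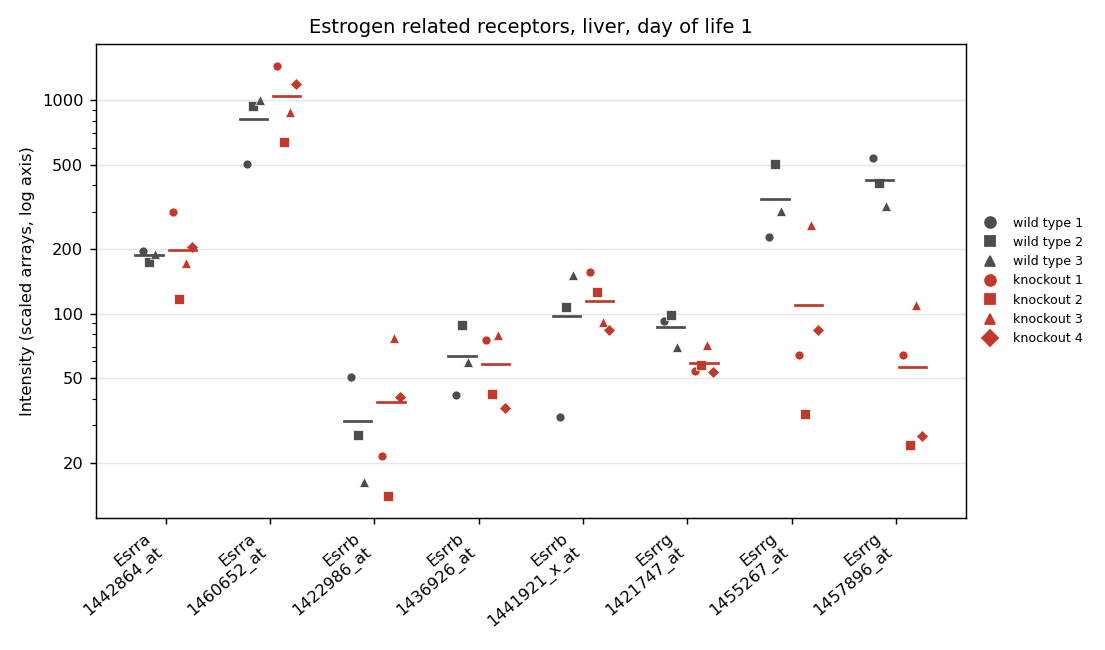
Intensity on scaled arrays (vertical log axis) of every probe set of Esrra, Esrrb and Esrrg in each of 3 wild type (grey) and 4 knockout (red) livers, with a bar at each group's mean. For Esrrg 1457896_at all knockout livers lie at or under 109.7 and all wild type livers at or above 318.7, while the groups overlap for every Esrra and Esrrb probe set.

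The fixed list of 24 genes tied to estrogen related receptors had 23 measured and 18 tested, of which 1 was called higher and 0 lower, with a median log2 fold change of -0.063. Over all tested genes 3.09% were called higher and 1.67% lower, with a median of -0.0013. The counts of every list below are to be read beside these shares. The member that rose was Slc25a20, the mitochondrial carnitine and acylcarnitine carrier, at 1.29 ± 0.23 (SE, adjusted p = 0.0167). It read 2072.2, 4432.1 and 3066.6 in wild type and 6526.3, 6701.6, 8482.5 and 8389.8 in knockout livers, so the groups did not overlap, and it did not pass without wild type 3 or knockout 4 (highest adjusted p = 0.0772). Slc25a20 also stands on the list of PPAR alpha target genes. Ppargc1a, the coactivator that partners these receptors, was at -0.57 ± 0.25 (SE, adjusted p = 0.215); it was chosen after its values were seen.

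Nr2f6, an orphan receptor of the COUP-TF group that mostly represses transcription and is best known from T cells, rose. Its probe set 1460648_at read 829.4, 1381.1 and 1104.6 in wild type and 2614.1, 2462.1, 2845.3 and 1824.4 in knockout livers. The lowest knockout liver, knockout 4, was above the highest wild type liver. The means were 1105 ± 276 (SD, n = 3) and 2436 ± 437 (SD, n = 4), a 2.20-fold higher knockout mean. Its log2 fold change was 1.14 ± 0.20 (SE, adjusted p = 0.0179), with an interval from 0.69 to 1.60. It did not pass without wild type 1, at 0.95 (adjusted p = 0.0596), or without wild type 3 (adjusted p = 0.0812), and over all left-out arrays it ran from 0.95 to 1.31. The second Nr2f6 probe set, 1460647_a_at, read 263.4, 388.0 and 447.8 in wild type and 431.6, 500.4, 693.0 and 644.9 in knockout livers. Only knockout 1 fell within the wild type range there, and the log2 fold change of 0.62 ± 0.23 did not pass (SE, adjusted p = 0.150).

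Nr2f2, the COUP-TF of veins, lymphatics and developing organs, missed the threshold on its brightest probe set. It read 652.3, 548.5 and 625.7 in wild type and 911.5, 983.7, 700.8 and 1004.8 in knockout livers, groups that did not overlap. Its log2 fold change was 0.54 ± 0.17 (SE, adjusted p = 0.0982), and it passed without knockout 3 at 0.66 (adjusted p = 0.0410). Its other 3 tested probe sets lay between 0.030 and 0.16 with overlapping groups. Nr2f1, the remaining COUP-TF, was at -0.21 ± 0.21 on its only probe set. The 3 genes of the group gave 1 call, higher, among 7 tested probe sets, where 2.35% of all tested probe sets were called higher. Probe sets of the same gene are not separate results, and 1 call does not set the group apart.

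Of the markers of T cells, in which Nr2f6 is well known, 1 was called lower. The summed level of 5 measured T cell genes ran from 1070.6 to 1878.6 in wild type and from 365.0 to 679.8 in knockout livers, and of 2 tested genes Itgae was called lower at -1.99 ± 0.34 (SE, adjusted p = 0.0157), though not without wild type 3 (adjusted p = 0.0799). Cd3e, a defining T cell gene, was under the brightness limit and not tested, at 54.8 to 60.7 in wild type and 19.5 to 22.9 in knockout livers. The part of these cells in the receptor values was not tested. In bulk tissue fewer cells of a type and less RNA per cell cannot be told apart.

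Upstream sequences are shown for Nr2f6 and Esrrg because each had a called probe set. Promoters were taken from RefSeq (assembly GRCm38.p6), which matched 34 of the 37 genes with 54 promoters of 300 bases, and the first 250 bases of each window, those before the start of transcription, are printed 5′ to 3′ on the gene's strand. Nr2f6 has 1 listed start, and Esrrg has 4, of which the one with the lowest coordinate is shown. Which of the 4 is used in these livers was not measured.
Nr2f6 chr8:71381953-71382202 (minus strand): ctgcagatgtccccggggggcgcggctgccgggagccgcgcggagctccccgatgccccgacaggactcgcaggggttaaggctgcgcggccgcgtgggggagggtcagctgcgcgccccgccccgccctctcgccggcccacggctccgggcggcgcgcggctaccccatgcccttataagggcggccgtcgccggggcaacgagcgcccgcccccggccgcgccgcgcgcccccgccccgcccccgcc
Esrrg chr1:187608756-187609005 (plus strand): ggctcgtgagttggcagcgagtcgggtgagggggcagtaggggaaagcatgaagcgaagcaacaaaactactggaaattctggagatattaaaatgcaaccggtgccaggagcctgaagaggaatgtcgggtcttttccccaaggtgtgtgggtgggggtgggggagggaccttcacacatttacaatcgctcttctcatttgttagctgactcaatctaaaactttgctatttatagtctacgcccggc
The whole Nr2f6 window was 82.7% G and C with 53 CpG pairs, and this Esrrg window was 54.0% G and C with 15 CpG pairs, beside a median of 52.7% G and C over 32851 promoters. Both are printed in lower case throughout, since neither holds the core motif searched for.

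Receptors of this family bind variants of the core motif AGGTCA, so the members' own promoters were searched for it on both strands. It stood in 10 of the members' 54 promoters, or 18.5%, and in 5340 of all 32851 promoters of the same length, or 16.3%. Each match before a start in a member with a tested probe set is shown with its flanks, the motif or its reverse complement TGACCT in capitals.
Pparg chr6:115361104-115361133 (plus strand): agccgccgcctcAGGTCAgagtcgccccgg
Pparg chr6:115362328-115362357 (plus strand): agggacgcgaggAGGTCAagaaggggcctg
Rxra chr2:27709193-27709222 (plus strand): tagaaatgggtgTGACCTgagtaatggtca
Rxra chr2:27709232-27709261 (plus strand): gggtggcaggaaAGGTCAgtcactctctgt
Rarg chr15:102257730-102257759 (minus strand): agcccaggacacTGACCTctgccagctctg
Nr5a2 chr1:136960495-136960524 (minus strand): atggtttacagcAGGTCAtacatgctggaa
Nr6a1 chr2:38784589-38784618 (minus strand): ccatgcacactgTGACCTtagagcctgaac
Nr6a1 chr2:38784543-38784572 (minus strand): cggcttgtaaacTGACCTgtgaggatgacg
None of these 5 genes, Pparg, Rxra, Rarg, Nr5a2 and Nr6a1, was called. By brightest probe set 3.09% of all tested genes were called higher and 1.67% lower. None of the 4 Esrrg windows or the Nr2f6 window held the motif, which 16.3% of all promoters held. Numbers this small show no link between the motif and a change. The extended motif TCAAGGTCA, which contains the core motif and is the preferred site of estrogen related receptors, was in 0 of the 54 and in 139 of all promoters, or 0.423%. A match is a description of the letters, and no match says only that these letters are not in this window.

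None of the receptors for fatty acids passed. Ppara, which turns on fatty acid oxidation in liver, read 3249.0, 3664.1 and 3971.6 in wild type and 3944.0, 4151.5, 2722.6 and 4746.1 in knockout livers on its brightest probe set. Knockout 3 was the lowest and knockout 4 the highest of all 7. This was a log2 fold change of 0.077 ± 0.18 (SE, adjusted p = 0.849), with an interval from -0.33 to 0.48, and the other 2 probe sets were at 0.31 and 0.39. Ppard, a receptor with targets in many tissues, read 252.1, 268.4 and 215.8 in wild type and 390.7, 352.9, 279.6 and 280.0 in knockout livers. Its groups did not overlap, yet 0.38 ± 0.18 did not pass (SE, adjusted p = 0.262). Pparg, the receptor of fat cell differentiation, read 294.3, 130.7 and 177.6 in wild type and 248.5, 230.7, 185.1 and 205.0 in knockout livers, all 4 inside the wild type range. It was at 0.17 ± 0.25 (SE, adjusted p = 0.750). All 5 tested probe sets of the 3 genes were above 0, with a median of 0.31.

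Of the tested genes known as targets of PPAR alpha, 12 of 20 rose, while the receptor's own transcript did not pass. Of 24 listed genes 21 were measured and 20 tested, 12 were called higher and 0 lower, and the median log2 fold change was 1.22, beside -0.0013 over all tested genes. The list had been chosen with results of these livers known, so its direction is not independent evidence. The 4 of smallest p were Acaa1b, a peroxisomal thiolase, at 2.99 ± 0.23 (SE), and the acyl-CoA thioesterases Acot4 at 2.34 ± 0.24, Acot1 at 2.02 ± 0.21 and Acot3 at 2.84 ± 0.31, and each passed whichever array was left out. Acot4 read 162.0, 133.3 and 117.9 in wild type and 661.9, 890.6, 521.1 and 1054.0 in knockout livers, so the lowest knockout liver, knockout 3, was far above the highest wild type liver. Between 8 and 14 genes of the list passed when an array was left out, 8 without wild type 3. Fgf21, the fasting hormone that PPAR alpha induces, was under the brightness limit and was chosen after its values were seen: 8.2, 7.8 and 16.8 in wild type and 50.7, 103.2, 88.6 and 119.5 in knockout livers, with no overlap.

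Retinoid receptors showed no call. Rxra, the main heterodimer partner in liver, read 2731.4, 3236.2 and 2628.2 in wild type and 3308.5, 2462.1, 3612.2 and 3425.3 in knockout livers. Knockout 2 was the lowest of all 7 and the other 3 knockout livers were above every wild type liver. The log2 fold change was 0.15 ± 0.16 (SE, adjusted p = 0.627). Rxrb read 1632.0, 1778.5 and 2292.1 in wild type and 2158.3, 1361.6, 1178.7 and 2484.9 in knockout livers, which spread to both sides of wild type, at -0.13 ± 0.26 (SE, adjusted p = 0.810). The retinoic acid receptors Rarb and Rarg were at -0.092 ± 0.20 and, on the brightest of 2 probe sets, 0.27 ± 0.20. Rxrg and Rara were under the brightness limit, at 35.6 to 91.4 and 19.8 to 97.7 across all 7 livers.

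Around these receptors, 14 of 22 listed genes of retinoid metabolism and response were tested, with 1 called higher, 1 lower and a median of 0.17. Retsat, which saturates retinol, rose by 1.82 ± 0.42 (SE, adjusted p = 0.0442), from 804.9, 981.1 and 1050.0 in wild type to 1978.9, 2131.3, 8638.5 and 3436.0 in knockout livers. Knockout 3 was far above the others. Rdh11, a retinal reductase, fell by 0.99 ± 0.21 (SE, adjusted p = 0.0326), from 1976.0, 1102.5 and 1613.4 to 784.3, 854.3, 811.7 and 606.5, with no overlap. Both calls were lost in several runs without 1 array, Retsat in 5 of 7 (highest adjusted p = 0.139) and Rdh11 in 4 of 7 (highest adjusted p = 0.144).

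Thyroid hormone receptor alpha, Thra, had 3 tested probe sets, all above 0 and none called. The brightest was at 0.22 ± 0.17 and 1426997_at at 0.16 ± 0.19. Probe set 1443952_at read 209.3, 274.8 and 288.7 in wild type and 304.8, 325.5, 529.2 and 362.7 in knockout livers. Its groups did not overlap, but 0.52 ± 0.22 did not pass (SE, adjusted p = 0.202). Thrb, the isoform typical of adult liver, was under the brightness limit at 42.3 to 102.7.

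Of 15 listed genes of thyroid hormone transport and response 10 were tested, 1 was called higher and 0 lower, and the median was 0.10. Me1, malic enzyme, a classic thyroid hormone response gene that also supplies NADPH for fat synthesis, rose by 1.61 ± 0.21 (SE, adjusted p = 0.00604). It read 314.5, 266.7 and 301.5 in wild type and 988.9, 642.1, 1253.5 and 934.4 in knockout livers, and it passed whichever array was left out. Whether thyroid hormone had a part in this rise was not tested. Fgf21 stands both on this list and on that of PPAR alpha target genes. Without knockout 3, 3 genes of this list were called.

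The receptors for foreign compounds, CAR (Nr1i3) and PXR (Nr1i2), did not pass. Nr1i3 read 503.0, 877.1 and 1002.5 in wild type and 1356.5, 1158.0, 1193.1 and 1006.2 in knockout livers. The groups did not overlap, though knockout 4 and wild type 3 nearly met. The log2 fold change was 0.61 ± 0.23 (SE, adjusted p = 0.155), with an interval from 0.11 to 1.11, and it was 0.32 without wild type 1. Nr1i2 read 417.6, 444.3 and 550.8 in wild type and 661.4, 612.6, 397.5 and 686.0 in knockout livers on its brightest probe set. Knockout 3 was the lowest of all 7 and the other 3 knockout livers were above every wild type liver, and 0.29 ± 0.21 did not pass (SE, adjusted p = 0.452). Knockout 3 was also the lowest liver on the second Nr1i2 probe set, with 219.4 in knockout 3 and 434.6 to 457.4 in the other knockout livers.

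Of 22 listed CAR and PXR target genes 14 were tested, 0 were called higher and 1 lower, and the median was -0.13. Cyp2b10, the cytochrome P450 most used as a readout of CAR, fell by 1.75 ± 0.36 (SE, adjusted p = 0.0299). It read 180.7, 293.7 and 428.2 in wild type and 143.7, 45.4, 72.6 and 56.2 in knockout livers. The groups did not overlap, and knockout 1 came closest. All knockout livers but knockout 1 read under the brightness limit, so the size of this fall is rough. The call was lost in 4 of 7 runs without 1 array (highest adjusted p = 0.141). The Nr1i3 transcript was not below wild type in the same livers, and a link between it and Cyp2b10 was not tested.

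**Figure D3:**
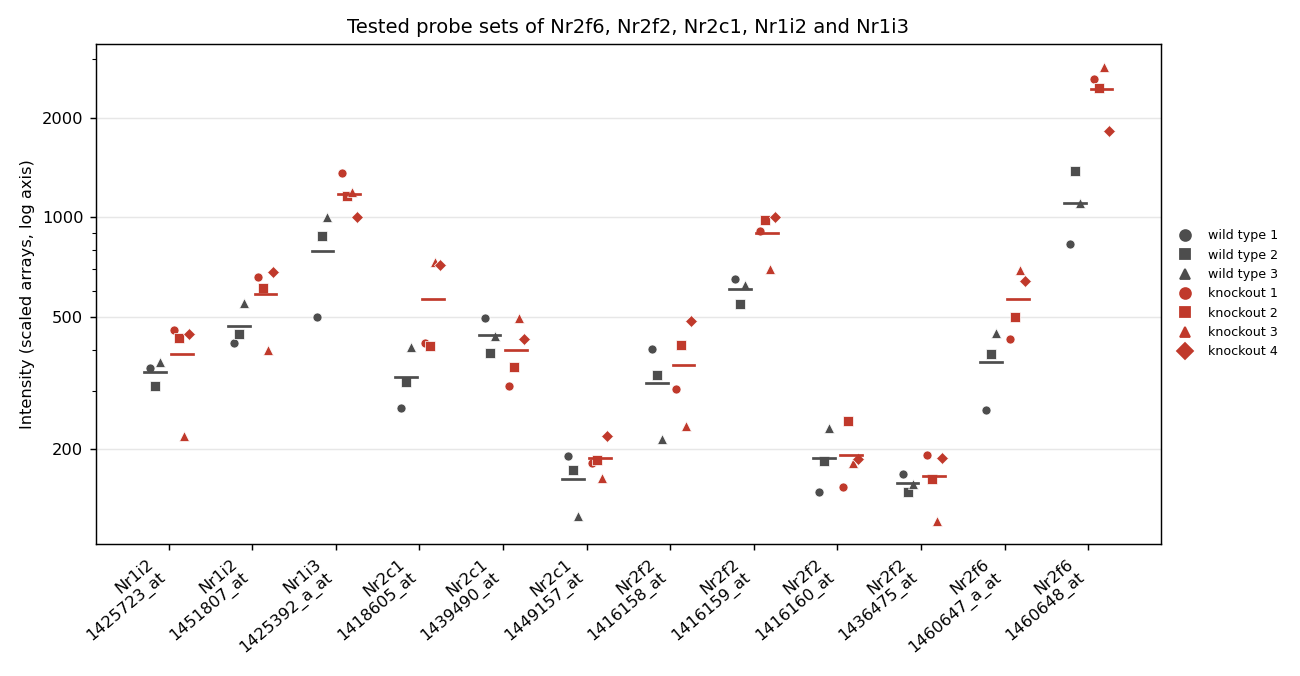
Intensity on scaled arrays (vertical log axis) of every tested probe set of Nr1i2, Nr1i3, Nr2c1, Nr2f2 and Nr2f6 in each of 3 wild type (grey) and 4 knockout (red) livers, with a bar at each group's mean. The Nr2f6 1460648_at groups lie farthest apart, at 829.4 to 1381.1 against 1824.4 to 2845.3, and knockout 3 is the low knockout liver on both Nr1i2 probe sets.

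Hnf4a, the receptor that maintains hepatocyte gene expression, did not pass on any of 4 probe sets. The brightest read 8773.8, 7945.4 and 9108.0 in wild type and 10824.6, 6958.3, 10486.0 and 8309.4 in knockout livers, which lay on both sides of wild type. It was at 0.066 ± 0.16 (SE, adjusted p = 0.848). The probe sets differed in sign: 2 others were at 0.22 and 0.23, and 1427000_at was at -0.44 ± 0.21 (SE, adjusted p = 0.255). Without knockout 1 that last probe set passed, at -0.63 (adjusted p = 0.0471). Hnf4g, its paralogue of the gut, was at 26.1 or lower in every liver.

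Of 20 listed HNF4 alpha target genes 16 were tested, 4 were called higher and 0 lower, and the median was 0.27. Over all tested genes 3.09% were called higher and the median was -0.0013. This list too was chosen with results of these livers known, so its direction is not independent evidence. Mttp, which loads lipid onto lipoproteins, was at 1.02 ± 0.16 (SE, adjusted p = 0.0105), and the lipoprotein component Apoc2 at 0.62 ± 0.10 (SE, adjusted p = 0.0118). Both missed the threshold only without wild type 3, where 0 genes of the list passed. The bile acid importer Slc10a1 at 0.46 ± 0.10 and the gap junction gene Gjb1 at 0.72 ± 0.18 also rose (adjusted p = 0.0352 and 0.0497). They were less secure: Slc10a1 was lost in 5 and Gjb1 in 6 of 7 runs without 1 array, and Gjb1 also after scaling to equal medians (adjusted p = 0.0572). The 4 genes that rose serve lipoprotein assembly, bile acid uptake and cell contact, and 12 tested genes of the list did not pass.

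Rora, an orphan receptor of lipid metabolism and circadian rhythm, was below 0 on all 7 tested probe sets, between -0.44 and -0.19, and none passed. The brightest read 2132.4, 2854.3 and 3084.7 in wild type and 1293.7, 2329.0, 2669.2 and 2664.4 in knockout livers, at -0.30 ± 0.25 (SE, adjusted p = 0.525). Knockout 1 was the lowest of all livers on each of the 7, and the other knockout livers overlapped wild type. Without knockout 1 the brightest probe set was at -0.060. These probe sets share a gene and livers, so they are not 7 separate results. Rorb was at 66.3 or lower in every liver.

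The testicular orphan receptors differed from each other in sign. Nr2c1 on its brightest probe set read 266.3, 320.1 and 407.3 in wild type and 418.7, 408.7, 734.4 and 717.6 in knockout livers, groups that just did not overlap, at 0.72 ± 0.25 (SE, adjusted p = 0.135). Its other 2 tested probe sets were at -0.16 and 0.19. Nr2c2 was at -0.25, -0.27 and -0.33 on 3 probe sets, none called. Nr6a1, a receptor of germ cells and early embryos, was at 0.34 and 0.58 on 2 tested probe sets, none called.

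Nr5a2, a regulator of bile acid and cholesterol genes in liver, read 1029.9, 1142.6 and 1453.1 in wild type and 933.7, 1027.4, 1252.5 and 1024.0 in knockout livers on its brightest probe set. Knockout 3 lay inside the wild type range and the other 3 knockout livers under it, at -0.18 ± 0.17 (SE, adjusted p = 0.574). Its other tested probe sets were at 0.21 and -0.0015. Of 11 listed genes of the axis of NR5A2 and NR0B2 8 were tested and 0 called, with a median of 0.073. The 2 of smallest p were Shbg, sex hormone binding globulin, at 0.76 ± 0.23 (SE, adjusted p = 0.0895) and the HDL receptor Scarb1 at 0.15 ± 0.13 (SE, adjusted p = 0.534).

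Nr4a1, an immediate early receptor that responds to stimulation within minutes to hours, read 201.5, 185.1 and 194.1 in wild type and 202.0, 182.4, 249.3 and 186.3 in knockout livers. Only knockout 3 stood clearly above the rest, and the log2 fold change was 0.068 ± 0.18 (SE, adjusted p = 0.863). Nr4a2 and Nr4a3 were under the brightness limit on all 6 and 3 probe sets. Among 14 listed immediate early genes 10 were tested, 0 were called higher and 1 lower, and the median was -0.25. Ier3 fell by 0.79 ± 0.19 (SE, adjusted p = 0.0450), but not after scaling to equal medians (adjusted p = 0.0861) or in 6 of 7 runs without 1 array.

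Nr0b1, which lacks a DNA-binding domain and acts in adrenal and gonad, lies next to the glycerol kinase gene in the human genome, where deletions can remove both. Its only probe set was far under the brightness limit, with 35.3, 3.4 and 2.9 in wild type and 1.6, 1.2, 4.8 and 1.3 in knockout livers. Only wild type 1 read above 4.8, and at this brightness no difference can be read. Nr5a1, its partner in steroid-producing tissue, was at 81.1 or lower in every liver.

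Steroid receptors were mostly dim in this liver. Esr1, estrogen receptor alpha, was the only one tested, on 1 of 3 probe sets, with 310.6, 321.0 and 399.6 in wild type and 166.0, 234.3, 362.6 and 221.7 in knockout livers. Knockout 3 lay inside the wild type range and the other 3 knockout livers under it, at -0.50 ± 0.24 (SE, adjusted p = 0.263). Esr2 was at 42.0 or lower, the progesterone receptor Pgr at 72.4 or lower and the mineralocorticoid receptor Nr3c2 at 61.2 or lower. Of 14 listed genes of steroid hormone response 10 were tested, 1 was called higher and 2 lower, and the median was -0.29. The kinase gene Sgk1 fell by 1.27 ± 0.29 (SE, adjusted p = 0.0392) and Zbtb16, a zinc finger factor, by 1.04 ± 0.23 (SE, adjusted p = 0.0392), whereas Ctf1, a cytokine of the interleukin-6 family, rose by 1.15 ± 0.22 (SE, adjusted p = 0.0227). After scaling to equal medians Sgk1 and Zbtb16 did not pass (adjusted p = 0.0590 and 0.0625), each was lost in 6 of 7 runs without 1 array, and Ctf1 was lost in 4 of 7.

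Under the brightness limit, 6 probe sets had groups that did not overlap. For the vitamin D receptor Vdr, 1418176_at read 116.8, 102.4 and 78.1 in wild type and 19.1, 58.8, 45.8 and 6.4 in knockout livers. For Esr1, 1421244_at read 73.5, 56.0 and 61.1 in wild type and 30.3, 13.5, 35.3 and 21.9 in knockout livers, and 1435663_at was lower as well. Both dim Esr1 probe sets were thus lower in every knockout liver, while the tested one overlapped. For Nr3c2, the readings were 25.9, 24.2 and 27.1 in wild type and 42.3, 48.0, 52.9 and 61.2 in knockout livers. For Nr6a1, 1421515_at read 32.9, 56.6 and 58.0 in wild type and 95.6, 95.6, 73.9 and 119.0 in knockout livers. Rorb 1439862_at was lower, at 8.4 to 25.5 against 1.3 to 3.1. Fitted without the brightness limit, 0 of these 6 passed, with adjusted p from 0.144 to 0.393, and unadjusted p under 0.05 for 5 of the 6. Over all 101 probe sets, every knockout liver was above every wild type liver in 8, or 7.92%, beside 6.14% of all probe sets, and below in 5, or 4.95%, beside 8.11%. Shares this near the background are not a result about the receptors. The vitamin D list had 2 of 10 genes tested and 0 called, Cyp27a1 at -0.56 ± 0.18 (SE, adjusted p = 0.119) and S100g at -0.63 ± 1.23 (SE, adjusted p = 0.814).

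**Figure D4:**
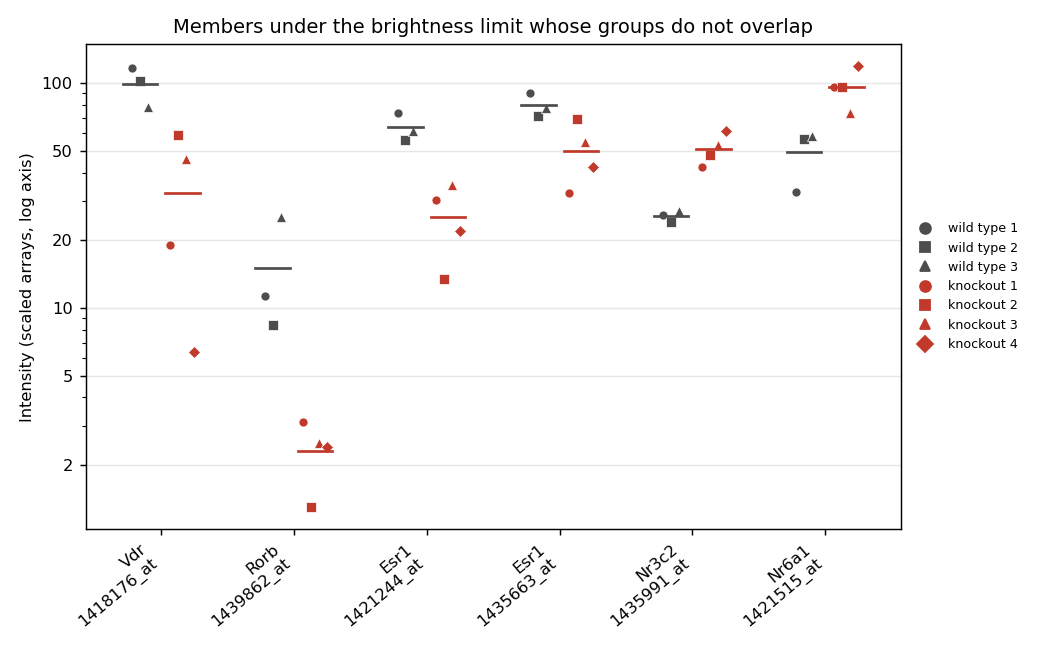
Intensity on scaled arrays (vertical log axis) of the 6 probe sets under the brightness limit whose groups do not overlap, in each of 3 wild type (grey) and 4 knockout (red) livers, with a bar at each group's mean. Vdr, Rorb and both Esr1 probe sets are lower and Nr3c2 and Nr6a1 higher in knockout livers, all at 119.0 or less.

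Of 21 coactivator genes, whose proteins the receptors recruit, all were tested, 0 were called higher and 1 lower. The median was -0.17, with 13 below 0. Their summed level was lower in knockout livers without overlap, at 50963 to 59040 in wild type and 36558 to 47296 in knockout livers. The brightest genes weigh most in such a sum. The sum of the steroid hormone response list was lower without overlap too, at 65353 to 78158 against 50113 to 61258. Those of the PPAR alpha and HNF4 alpha target lists were higher without overlap, and those of the other lists around the receptors overlapped. Pnrc2, a coactivator that also takes part in mRNA decay, fell by 0.88 ± 0.18 (SE, adjusted p = 0.0272), from 2643.2, 1848.3 and 2625.2 in wild type to 1452.6, 1039.7, 1221.0 and 1375.8 in knockout livers. The groups did not overlap, and the call was lost in 4 of 7 runs without 1 array (highest adjusted p = 0.139). Of 9 tested corepressor genes 0 were called, with a median of -0.023; Cops2 was at -0.29 ± 0.14 and Sin3a at 0.24 ± 0.16, those of smallest p. Among 6 tested receptors of the family outside the 37 genes 1 was called and the median was 0.36. The called gene was Nr1h4, the bile acid receptor FXR, at 1.08 ± 0.23 (SE, adjusted p = 0.0332). That call was lost in 4 of 7 runs without 1 array.

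Several of these calls also rest on the brightness limit, since dropping it tests more probe sets and adjusts over more of them. Without the limit 12 PPAR alpha target genes were called, 3 genes of the thyroid hormone list, 2 of the HNF4 alpha list, and 1 each of the steroid, coactivator and estrogen related receptor lists. The retinoid, CAR and PXR, immediate early and other receptor lists then had 0, with adjusted p of 0.0801 for Retsat, 0.0553 for Rdh11, 0.0637 for Cyp2b10, 0.0736 for Ier3 and 0.0570 for Nr1h4. Slc10a1, Gjb1, Sgk1 and Zbtb16 did not pass either (adjusted p from 0.0690 to 0.0896). Fabp1 of the PPAR alpha list, called with the limit, did not pass without it (adjusted p = 0.0764). It was also lost in 5 of 7 runs without 1 array. The 12 genes of that list called without the limit are thus not the same 12 as with it. A gene under the limit can be called in that fit.

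**Figure D5:**
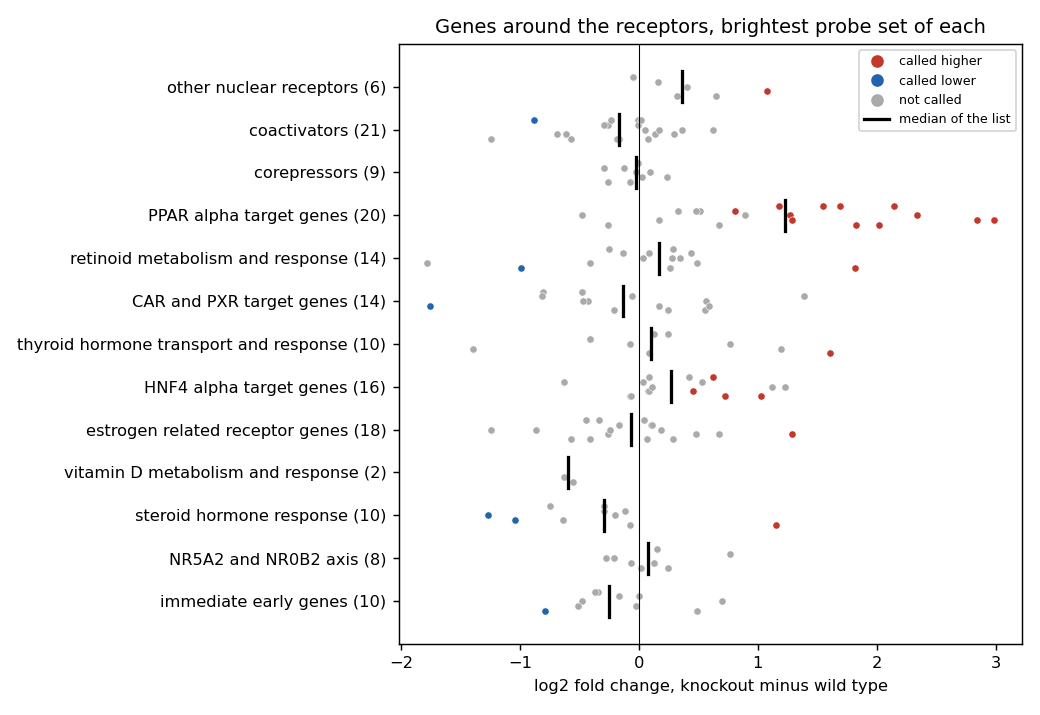
Log2 fold change (knockout minus wild type, horizontal axis) of the tested genes of 13 lists of genes around the receptors, each read from its brightest probe set, with the number tested in brackets and a bar at each median. The PPAR alpha target genes lie farthest to the right, with a median of 1.22 and 12 of 20 called higher, while the other medians lie between -0.59 and 0.36.

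The arrays and their cell markers give the setting of these values. Each array had a trimmed mean of 500.003, with medians of 92.7 to 108.3. The ratio of 3′ to 5′ probe sets was highest in knockout 3, at 1.45 for actin against 1.12 to 1.35 in the other arrays and 1.07 for Gapdh against 0.899 to 0.961. Knockout 3 was also the liver that stood apart for Esrrg 1455267_at, Nr2f2 and both Nr1i2 probe sets, and its part in those results was not tested beyond leaving it out. Hepatocyte markers had 0 of 7 called. Their summed level overlapped between groups, at 173911 to 183045 in wild type and a wider 163753 to 213837 in knockout livers. Albumin, the defining hepatocyte marker, read 26464.9 to 39071.8. Summed erythroid markers were lower without overlap, at 66313.7 to 72796.2 in wild type and 53337.8 to 62516.0 in knockout livers, with Slc4a1 and Rhag called lower of 6 tested. Summed endothelial markers were lower too, at 12708.6 to 15212.7 against 7198.3 to 12648.5, with 0 of 6 called. Their part in the receptor values was not tested. The other 11 marker lists, among them macrophage, neutrophil, B cell, stellate, cholangiocyte and adrenal cortex, had 0 genes called. Slc4a1 and Rhag did not pass after scaling to equal medians (adjusted p = 0.101 and 0.141), and were lost in 5 and 6 of 7 runs without 1 array.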

How the data were processed

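Liver RNA of 3 wild type and 4 knockout pups was hybridised to 1 array each. The deposited values are 1 intensity per probe set and array on a linear scale, made with GCOS per the submitters' processing notes. The version and the method that summarises probes are not given in the sources used here. The trimmed mean of the deposited intensity, without the lowest and highest 2%, was the same on every array, so a change of total RNA cannot be seen.

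Of 45101 probe sets 64 controls were left out, and those with a mean log2(intensity + 16) above the median were tested, 22518 in all. Knockout was compared with wild type in R 4.3.3 with limma 3.58.1 (lmFit, eBayes with a trend), with Benjamini-Hochberg adjustment over all tested probe sets. The steps were tested on simulated data. Plots used matplotlib 3.10.9. The number of arrays limits the precision.

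Genes were named from the platform annotation, in which 34958 probe sets had 1 symbol, 932 had several and 9211 had none. All 37 members were found in RefSeq by gene ID, and 1 probe set that names a member beside another gene was not used. A gene stands for its brightest probe set in lists and counts of genes. The lists hold 297 genes, of which 264 matched.

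The members and lists were chosen with earlier results of these data known. By rule, values in every array are given for members with a called probe set and for 12 other members, and from each list the called genes, up to 4 of smallest p, or the 2 of smallest p where none passed. Values of further members, of Ppargc1a and Fgf21, and of the markers Cd3e and albumin stand outside that rule and were chosen after they had been seen.

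Paired numbers were checked by the correlation of deviations between same-numbered livers, which was 0.0866, -0.0562 and 0.0553. Between differently numbered livers it ran from -0.132 to 0.119, so same-numbered livers did not stand out. Deviations cancel out within a group, so this check cannot exclude a pairing, and the main fit used none. Differences between paralogues were compared by exact permutation, two-sided, over all 35 ways to split the livers. Alternatives covered the offset, scaling, filter, variance trend, threshold, shared probe sets, the rule for several probe sets, the replicate block and each array left out. The targeted gene's own transcript is not reported here, so it did not serve to check the labels.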

Additional observations from a re-analysis of the deposited data

Results flagged for a closer look

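All 101 probe sets of the 37 genes were checked for a knockout liver far from the other 3, and 4 were found, where chance alone gives about 1 in 20. Nr1i2 1425723_at read 219.4 in knockout 3, against 434.6 to 457.4 in the other knockout livers. The other 3 were at or near background. Pgr 1455772_at read 5.7 in knockout 3 against 1.6 to 1.9, Nr5a1 1421730_at read 35.8 in knockout 1 against 7.8 to 10.7, and Nr0b1 read 4.8 in knockout 3 against 1.2 to 1.6.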

How the results depend on the processing

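The same 2 probe sets, of Esrrg and Nr2f6, were called under both other offsets, both other scalings, both other filters, without the variance trend, with shared probe sets left out and with the replicate number as a block. The size of the Esrrg change ran from -3.13 at offset 1 to -2.05 at offset 64. With the replicate block Esrrg minus Esrra was -1.99 and Esrrg minus Esrrb -2.20, 1 gene was called by its brightest probe set, and no other member call changed. Knockout 4 has no wild type liver of the same number, so it adds nothing to the fold changes with the block. The labels give the livers only a shared number. At an adjusted p under 0.1, 4 probe sets and 3 genes were called, Esrrg, Nr2f2 and Nr2f6. When each gene was averaged over its probe sets, 2 genes were called, Esrrg and Nr2f6. Without 1 array, the called probe sets numbered 1 to 4 and the called genes 0 to 3. Small fold changes reversed: Ppara to -0.028 with the replicate block, and Hnf4a to -0.44 with shared probe sets left out, which removes its brightest probe set. Without 1 array Ppara ran from -0.028 to 0.24, Hnf4a from -0.022 to 0.19, Esrrb from -0.17 to 0.72, Pparg from -0.079 to 0.46, Rxrb from -0.31 to 0.045, Rarb from -0.16 to 0.024 and Nr4a1 from -0.024 to 0.12. Under each scaling 16 member genes were above 0 and 8 below. Over all tested probe sets 955 were called, but 473 without a filter, 584 without the trend, 351 with the block, 2032 at an adjusted p under 0.1, 611 without shared probe sets and 141 to 1002 without 1 array, fewest without wild type 3; fewer arrays leave fewer degrees of freedom. Of the calls 55.4% were higher, and 73.5% after scaling to equal medians. Intensities near background limit what the 13 untested genes can show.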
